A study of Homo sapiens with 2 samples.

Results

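A set of 10 genes that are used to follow the maturation of monocytes were examined in MOLM-13, a human acute myeloid leukemia cell line with monocytic features that carries the KMT2A::MLLT3 fusion. The 10 genes were taken by symbol from a table of 50868 genes, and all 10 were found. They are the colony-stimulating factor receptors CSF1R, CSF2RA, CSF2RB and CSF3R, the immunoglobulin G receptors FCGR1A and FCGR2A, the signalling adaptors FCER1G and TYROBP, the lipopolysaccharide co-receptor CD14 and the lysosomal glycoprotein CD68. FCER1G and TYROBP are thus adaptors and not receptors for a soluble ligand, although they belong to the same maturation program. Of the 10 genes, 8 reached a sum of 10 reads in the pair of libraries and were tested, which here means that a fold change was computed and set against a threshold of 2-fold. CD14 and FCER1G stayed below that minimum.

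Monocytes arise from granulocyte and monocyte progenitors under the control of colony-stimulating factors. M-CSF and IL-34 bind CSF1R, a receptor tyrosine kinase, GM-CSF binds a receptor made of the ligand-binding chain CSF2RA and the signalling chain CSF2RB, and G-CSF binds CSF3R, which is characteristic of the granulocytic branch. Fc receptors bind the constant part of antibodies. FCGR1A, the high-affinity receptor CD64, has no signalling motif of its own and pairs with FCER1G, the common gamma chain, whereas FCGR2A, the low-affinity receptor CD32, carries an activating motif in its own tail. TYROBP, also called DAP12, is the adaptor of TREM and related receptors. CD14 hands lipopolysaccharide to TLR4 and is the standard surface marker of classical monocytes, and CD68 is found in the lysosomes of monocytes and macrophages.

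RNA-seq was performed on 1 library of empty-vector cells (Vector) and 1 library of cells labelled as overexpressing UNC5B, a netrin-1 receptor (OE-UNC5B). According to the methods, the construct was delivered by lentivirus with a CMV promoter, and cells were selected with puromycin. Both libraries come from the same line, so they share its leukemic background, and nothing is known here of how far separate cultures of the line vary. The question is whether the maturation genes differ between the libraries. The targeted gene was examined first. UNC5B (chromosome 10, 71212570 to 71302864, GRCh38) had 0 reads in Vector against 0 in the OE-UNC5B-labelled library, so its level was below the floor of 3 reads, or 0.222 CPM (counts after scaling for library size) for Vector and 0.189 CPM for the other library. The overexpression is not visible in these counts, and all directions below rest on the label.

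Vector held 13715566 counted reads and the OE-UNC5B-labelled library 15637137, with a median of 269.5 and 316 reads per tested gene. With 1 library per group there is no replicate check, no difference was tested against variation between cultures and no p-value is given. The 95% intervals printed with levels and fold changes come from the reads and cover counting error only. As bulk RNA was sequenced, fewer cells with a transcript and less transcript per cell cannot be told apart.

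The promoters of these genes were compared first, because myeloid genes are known targets of PU.1, the transcription factor encoded by SPI1, whose core binding motif is GAGGAA or, on the other strand, TTCCTC. RefSeq promoter windows (GRCh38.p14) were matched by symbol for 9 of the 10 genes, with 2 alternative starts each for CSF1R and CSF3R. The motif occurred on one strand or the other in the 250 bases before the start in 8 of the 11 windows, which belong to 8 genes. Over all 34961 RefSeq windows of the same length, 23.6% held it. FCER1G was the only one of the 9 genes without a match. The 150 bases before the start of the windows below show how near the motif, in capitals, lies to the start in an Fc receptor pair, an adaptor and a cytokine receptor chain, each printed 5′ to 3′ on the strand of its gene.
FCGR1A, chr1:149782544-149782693, plus strand: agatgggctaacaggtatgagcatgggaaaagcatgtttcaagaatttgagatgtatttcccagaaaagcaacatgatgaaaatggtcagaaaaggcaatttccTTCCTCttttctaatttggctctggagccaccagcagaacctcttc
FCGR2A, chr1:161505307-161505456, plus strand: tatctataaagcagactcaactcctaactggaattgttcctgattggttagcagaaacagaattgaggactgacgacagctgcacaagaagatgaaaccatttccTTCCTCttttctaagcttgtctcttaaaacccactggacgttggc
TYROBP, chr19:35908296-35908445, minus strand: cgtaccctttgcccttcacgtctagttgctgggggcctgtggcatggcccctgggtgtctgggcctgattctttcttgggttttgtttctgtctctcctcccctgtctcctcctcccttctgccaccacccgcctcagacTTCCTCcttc
CSF2RA, chrX:1268664-1268813, plus strand: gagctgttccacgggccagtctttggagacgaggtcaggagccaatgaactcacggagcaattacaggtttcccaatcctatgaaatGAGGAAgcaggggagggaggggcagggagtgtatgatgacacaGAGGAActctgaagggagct
The motif nearest to the start began 46 bases upstream in FCGR1A, 45 bases upstream in FCGR2A, 10 bases upstream in TYROBP and 20 bases upstream in CSF2RA. Of the windows not printed, FCER1G and 1 each of CSF1R and CSF3R held no match. In the rest the nearest motif began 14 bases upstream in CSF1R, 48 in CD68, 96 in CD14 and 111 in CSF3R. In the Fc receptor pair it lay inside an identical stretch of 20 bases, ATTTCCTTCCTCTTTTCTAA, which began 52 bases before the start of FCGR1A and 51 bases before that of FCGR2A and was held by these 2 windows alone. A match is a description of the letters, and binding was not measured. SPI1 itself had 3219 reads in Vector against 3228 in the OE-UNC5B-labelled library, which after scaling is a log2 fold change of −0.23 (−0.30 to −0.16).

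The levels of the 10 genes spanned a wide range within each library. By the deposited FPKM, which are reads scaled to gene length and counted reads, FCGR1A was highest in Vector at 11.9 (95% interval 10.9 to 12.8), TYROBP had 10.7 and CSF3R 9.78. CD68 followed with 5.01, CSF2RA with 3.71, CSF1R with 3.65, FCGR2A with 1.78 and CSF2RB with 1.68, and the last places went to FCER1G with 0.323 and CD14 with 0.0756. Neighbours whose counting intervals overlapped in Vector were FCGR1A and TYROBP, TYROBP and CSF3R, CSF2RA and CSF1R, FCGR2A and CSF2RB, and FCER1G and CD14. The median FPKM of all tested genes in Vector was 2.80, so 6 of the 10 genes lay above it. In the OE-UNC5B-labelled library the same genes led, FCGR1A with 12.3, TYROBP with 11.3 and CSF3R with 9.82. CSF2RA, with 5.15, then stood before CD68 with 4.68, although their intervals overlapped, and the order of CSF1R (4.25), FCGR2A (2.11) and CSF2RB (1.59) was as in Vector. CD14 had 0.0829 and FCER1G 0.0566, with overlapping intervals.

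The order of genes depended on the gene length that the scaling used. For all 10 genes the length implied by the deposited FPKM was longer than the merged exons of GENCODE 44, by 1.17 to 2.89 times. For CD14 the implied length was 3856 nt and the whole locus spans 1974 nt. For CD68 the implied length was 4685 nt and the locus spans 2647 nt. Such lengths beyond the locus occurred for 8.90% of the 15356 genes with an implied length, and how they arose was not tested. Levels between genes are therefore also given per kilobase of merged exons in scaled reads, called the exon-based level here. On that scale TYROBP was first in Vector with 31.6, followed by FCGR1A with 20.9 and CSF3R with 15.7. With the length of the canonical transcript in place of merged exons, CSF3R and TYROBP led with 55.2 and 49.9, and their intervals overlapped. On all 3 scales and in both libraries the first 3 places belonged to FCGR1A, TYROBP and CSF3R, and the last 2 to FCER1G and CD14.

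**Figure D1:**
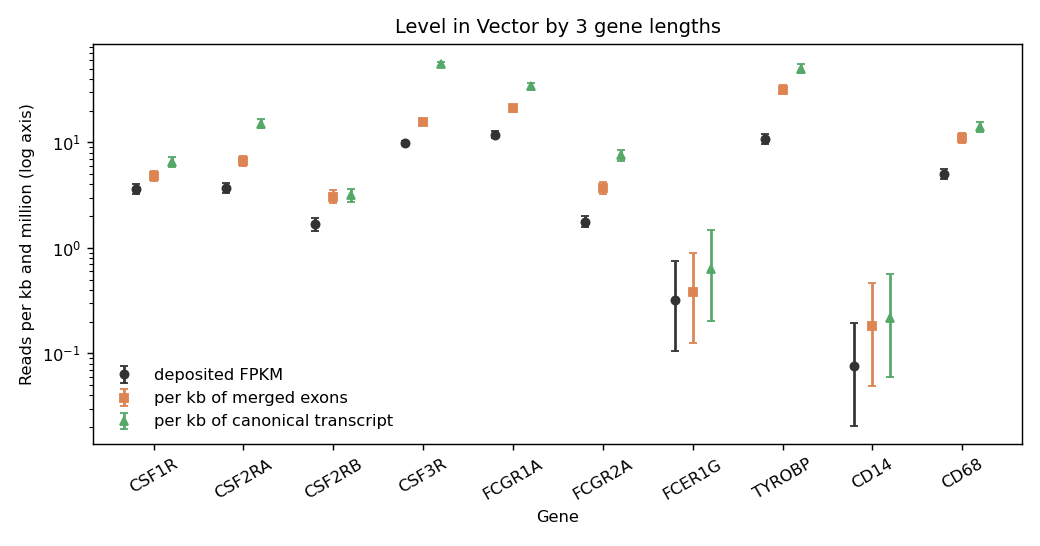
Level of each of the 10 genes in Vector (log axis), with reads scaled by library size and by 3 gene lengths: the length behind the deposited FPKM, merged exons and the canonical transcript. Bars are 95% intervals from the reads. CD14 and FCER1G lie below the other genes at every length, while TYROBP, FCGR1A and CSF3R exchange places.

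Among the colony-stimulating factor receptors, CSF3R, the G-CSF receptor (chromosome 1, 36466043 to 36483278, minus strand), had the most reads, 2241 in Vector and 2563 in the OE-UNC5B-labelled library. After scaling, the log2 fold change was −0.04 (95% interval −0.13 to 0.04), and its sign depended on the scaling, with a range from −0.04 to 0.00 over the alternatives. The libraries thus held nearly equal levels of CSF3R, and the interval lay far inside 2-fold.

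CSF1R, the M-CSF receptor (chromosome 5, 150053291 to 150113372, minus strand), had 334 reads in Vector against 443 in the OE-UNC5B-labelled library. The log2 fold change was 0.17 (−0.04 to 0.38), so the interval included 0. A ribosomal pseudogene, RPL7P1, lies on the other strand inside the CSF1R locus and was assigned 34674 and 38501 reads. None of its bases overlaps a CSF1R exon (0 bases), and whether counting used strand is not given in the sources used here.

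The GM-CSF receptor chains gave different values. CSF2RA, the ligand-binding chain in the pseudoautosomal region (chromosome X, 1268800 to 1310381, plus strand), had 369 reads in Vector against 583 in the OE-UNC5B-labelled library. Its log2 fold change was 0.42 (0.23 to 0.62), or 1.34-fold, the largest among the 8 tested genes and the only one whose interval excluded 0. It stayed below the 2-fold threshold. CSF2RB, the chain that signals for GM-CSF, IL-3 and IL-5 (chromosome 22, 36913628 to 36940449, plus strand), had 206 reads in Vector against 223 in the other library, a log2 fold change of −0.12 (−0.40 to 0.16). The ratio of CSF2RB to CSF2RA in exon-based level was 0.458 (0.384 to 0.544) in Vector and 0.314 (0.268 to 0.367) in the OE-UNC5B-labelled library. By canonical transcript length the ratios were 0.209 and 0.143, so their size depended on the length, while the factor between the libraries does not. The intervals did not overlap, and variation between cultures is not covered by them.

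IL3RA, which pairs with CSF2RB to form the IL-3 receptor, had 538 reads in Vector against 839 in the OE-UNC5B-labelled library, a log2 fold change of 0.40 (0.25 to 0.56). The ratio of IL3RA to CSF2RA in exon-based level was 3.49 in Vector and 3.44 in the other library (1.72 and 1.69 by canonical transcript, 4.70 and 4.64 by FPKM), so both alpha chains differed by a similar factor. IL5RA, the alpha chain of the IL-5 receptor, had 0 reads in both libraries. All 6 ligands of these receptors, CSF1, IL34, CSF2, CSF3, IL3 and IL5, also had 0 reads in both libraries.

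**Figure D2:**
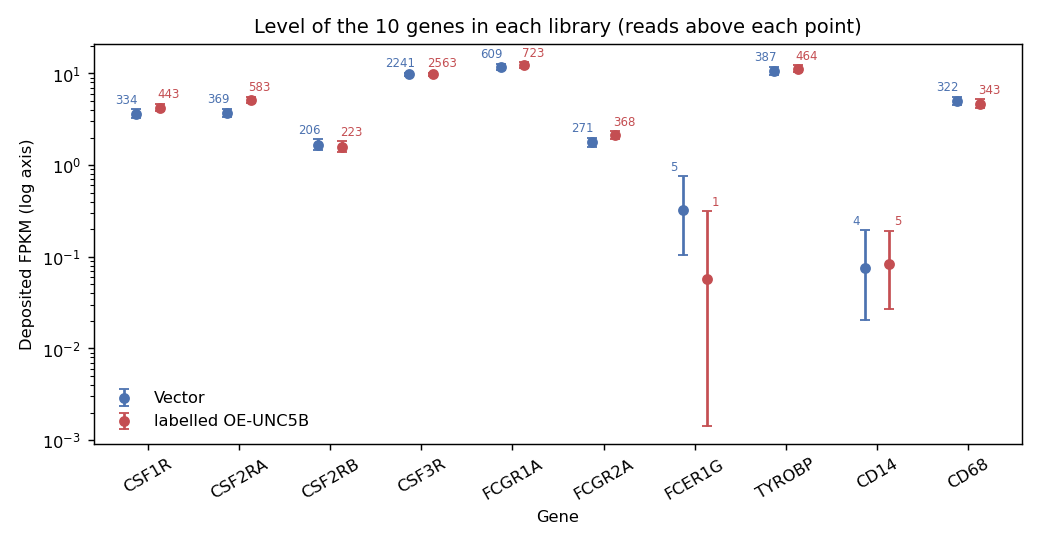
Deposited FPKM (log axis) of the 10 genes in Vector (blue) and in the OE-UNC5B-labelled library (red), with 95% intervals from the reads and the number of reads above each point. The points lie close together for each tested gene, and CD14 and FCER1G lie lowest with wide intervals.

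FCGR1A (chromosome 1, 149782671 to 149792518, plus strand) had 609 reads in Vector against 723 in the OE-UNC5B-labelled library. Its log2 fold change of 0.01 (−0.15 to 0.17) was close to 0. FCGR1A has near-identical copies, FCGR1B and FCGR1CP, between which reads may have been split, and it held 83.7% of the reads of the 3 genes in Vector and 77.4% in the other library. The difference in share went with FCGR1CP, which had 50 and 133 reads, while FCGR1B had 69 and 78. Summed over the 3 genes, reads were 728 and 934 and the log2 fold change was 0.12 (−0.02 to 0.26).

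FCGR2A (chromosome 1, 161505430 to 161524013, plus strand) had 271 reads in Vector against 368 in the OE-UNC5B-labelled library, a log2 fold change of 0.20 (−0.03 to 0.44). It too has close relatives, FCGR2B and FCGR2C, and held 91.9% of the family's reads in Vector and 96.8% in the other library. Summed over the 3 genes the log2 fold change was 0.13 (−0.09 to 0.35). In exon-based level FCGR1A stood 5.65 times above FCGR2A in Vector (4.89 to 6.55) and 4.94 times above it in the OE-UNC5B-labelled library (4.35 to 5.62), so the high-affinity receptor was the more abundant transcript in both.

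The adaptors differed strongly from each other. TYROBP (chromosome 19, 35904401 to 35908295, minus strand) had 387 reads in Vector against 464 in the OE-UNC5B-labelled library, a log2 fold change of 0.03 (−0.17 to 0.22). FCER1G (chromosome 1, 161215234 to 161220699, plus strand) had 5 reads in Vector and 1 read in the other library, too few for a fold change to be read. The ratio of scaled reads was 0.170, with a counting interval from 0.00359 to 1.52. In exon-based level TYROBP exceeded FCER1G 82.3-fold in Vector (34.9 to 255). In the OE-UNC5B-labelled library, where FCER1G had 1 read, the ratio was 493 (88.1 to 19520). By the deposited FPKM the ratios were 33.3 and 200, so their size depended on the gene length used. FCGR1A, which uses the FCER1G chain, was thus among the highest of the 10 transcripts while its partner was near the floor. Of the other adaptors of this kind, HCST (DAP10) had 28 and 31 reads and an exon-based level of 3.68 and 3.46, between those of FCGR2A and CSF2RB in each library. CD247, the T cell receptor zeta chain, had 2 and 3 reads.

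CD14 (chromosome 5, 140631728 to 140633701, minus strand) had 4 reads in Vector against 5 in the OE-UNC5B-labelled library, with a ratio of scaled reads of 1.06 and a counting interval from 0.228 to 5.35. The transcript of the classical monocyte marker was therefore close to the floor of 3 reads in both libraries, and a difference of 2-fold in either direction was not detectable at this depth.

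CD68 (chromosome 17, 7579467 to 7582113, plus strand) had 322 reads in Vector against 343 in the OE-UNC5B-labelled library. Its log2 fold change was −0.15 (−0.37 to 0.08). CD68 overlaps another transcript on the same strand, AC016876.3, with 1399 reads in Vector against 1127 in the other library, and reads in the shared part could belong to either. With both summed, reads were 1721 and 1470 and the log2 fold change was −0.46 (−0.57 to −0.36). How the authors' counting divided such reads is not given in the sources used here, so the value for CD68 alone is uncertain.

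Set against all genes, the 8 tested genes differed little between the libraries. None was higher and none was lower by 2-fold in the OE-UNC5B-labelled library (0 and 0 of 8), where 5.15% of the 15384 tested genes were higher and 4.79% were lower. The interval from the reads lay above 0 for 1 of the 8 genes and below 0 for 0 of them, against 25.2% and 26.2% of all tested genes. Of the 8 genes, 5 had more scaled reads in the OE-UNC5B-labelled library and 3 had fewer. Their median log2 fold change was 0.02, with a range from −0.15 to 0.42, beside a median of −0.01 over all tested genes. The median size of the log2 fold change, regardless of sign, was 0.13 for the 8 genes and 0.32 for all tested genes. As low counts scatter more, the 8592 genes whose libraries summed to 429 reads or more, the lowest sum among the 8, were also examined. Their median size was 0.26, 3.38% were past 2-fold, and 27.5% exceeded the change of CSF2RA. With 8 genes, counts of this kind say little about the group.

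**Figure D3:**
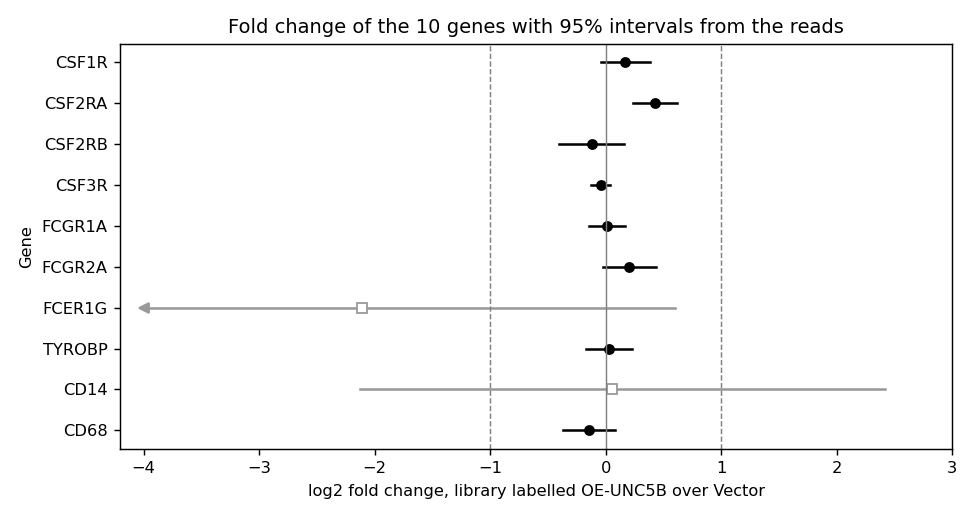
Log2 fold change of the OE-UNC5B-labelled library over Vector for the 10 genes, with 95% intervals from the reads and the 2-fold thresholds as dashed lines. Open grey squares are the genes with under 10 reads, and an arrow marks the interval of FCER1G that runs off the axis. The 8 tested genes (black) lie between −0.15 and 0.42, and CSF2RA alone among them has an interval that leaves out 0.

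The genes around these receptors were counted by function. Downstream of the cytokine receptors, 0 of 11 tested genes of the JAK-STAT and adaptor pathway were past 2-fold, with a median log2 fold change of 0.27. PTPN11, the phosphatase SHP2, had the most reads with 2826 in Vector and 4025 in the other library, a log2 fold change of 0.27. GAB2, a docking protein, had 1428 and 3349 reads, and its log2 fold change of 0.99 passed the threshold at 1.04 with scaling by library totals and at 1.03 with DESeq2 size factors. Of 8 targets and inhibitors that act in feedback on these receptors, 1 was higher and 1 was lower, with a median of 0.39. PIM1, a kinase gene induced by STAT5, had 1466 reads in Vector against 4244 in the OE-UNC5B-labelled library, a log2 fold change of 1.30. SOCS3, an inhibitor of G-CSF and IL-6 signalling, had 170 and 71 reads, a log2 fold change of −1.49. These genes were thus not uniform in direction.

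Other Fc receptors were mostly low. Of 7 tested, 1 was higher and 2 were lower, with a median log2 fold change of −0.73. The neonatal receptor FCGRT had the most reads, 663 in Vector and 581 in the OE-UNC5B-labelled library (log2 fold change −0.43). FCGR1CP, the near-identical copy named above, was higher with a log2 fold change of 1.17. FCGR2B, the inhibitory immunoglobulin G receptor, was lower with 13 and 5 reads (−1.53), and FCAR, the immunoglobulin A receptor, with 23 and 9 reads (−1.54). FCGR3A and FCGR3B, the CD16 genes, had 0 reads in both libraries.

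Receptors that signal through TYROBP or FCER1G were examined because their partners stood so far apart. Of 10 tested, 1 was higher and 2 were lower, with a median of −0.11, and SIRPB1 had the most reads (689 and 739, log2 fold change −0.14). TREM2, a lipid-sensing receptor coupled to TYROBP, had 243 reads in Vector against 106 in the OE-UNC5B-labelled library, a log2 fold change of −1.43 (−1.78 to −1.10). TREM1, which amplifies inflammatory signals through the same adaptor, had 25 and 3 reads, and the ratio of scaled reads was 0.102 with a counting interval from 0.0197 to 0.334. CLEC5A was past the threshold with 5 and 14 reads, but its interval included 0. CD300E, NCR2, CLEC4D and CLEC4E had 0 reads in both libraries. TYROBP itself thus had nearly equal levels, while of the 10 tested receptors 2 were lower and 1 was higher by more than 2-fold, and 7 were within 2-fold.

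Kinases and adaptors that act after these receptors ranged from 31 reads in Vector for CARD9 and 49 for FGR up to LYN. None of 10 was past 2-fold (0 higher and 0 lower), and their median was 0.21. LYN, a Src family kinase like FGR, had 4158 reads in Vector and 5506 in the other library, a log2 fold change of 0.17. None of 8 tested inhibitory receptors and phosphatases was past 2-fold either (0 and 0), and their median was 0.26. LAIR1, a collagen receptor, had the most reads of these with 3843 and 6269, a log2 fold change of 0.47.

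In the lipopolysaccharide pathway, of which CD14 is a part, 1 of 12 tested genes was higher and 1 was lower, with a median of 0.10. TLR2, a sensor of bacterial lipoproteins, had the most reads with 913 in Vector and 1256 in the OE-UNC5B-labelled library, a log2 fold change of 0.22. LY96, the MD-2 subunit that binds lipopolysaccharide on TLR4, was higher with 9 and 36 reads, a log2 fold change of 1.71 (0.68 to 3.00). TICAM2, the TRAM adaptor, had 16 reads in Vector against 0 in the other library, which is at least 6.28-fold lower against a floor of 3 reads if the 16 reads are taken as exact. With the counting error of both libraries, the interval of the ratio of scaled reads ran from 0 to 0.220, which allows a smaller difference. It shares its locus with a read-through transcript, TMED7-TICAM2, that had 60 and 64 reads, so its count is uncertain. LBP, which brings lipopolysaccharide to CD14, had 0 reads in both libraries.

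Of the lysosomal membrane and scavenger receptor genes beside CD68, 0 of 8 tested were higher and 1 was lower, with a median of −0.33. LAMP5 had the most reads, 9696 in Vector and 8196 in the OE-UNC5B-labelled library (log2 fold change −0.48). MARCO, a macrophage scavenger receptor, had 41 and 18 reads, a log2 fold change of −1.40. CD163, MRC1 and LAMP3 had 0 reads in both libraries.

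Transcription factors known to act on these receptor genes differed widely in their reads. Of 10 tested, 1 was higher and 1 was lower, with a median of −0.31. CEBPA, a factor of granulocyte and monocyte progenitors, had the most reads with 7227 in Vector and 7626 in the other library, a log2 fold change of −0.16. CEBPB, its relative in mature myeloid cells, had 187 and 557 reads, a log2 fold change of 1.34. EGR2, a factor of macrophage differentiation, had 62 and 15 reads, a log2 fold change of −2.25.

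**Figure D4:**
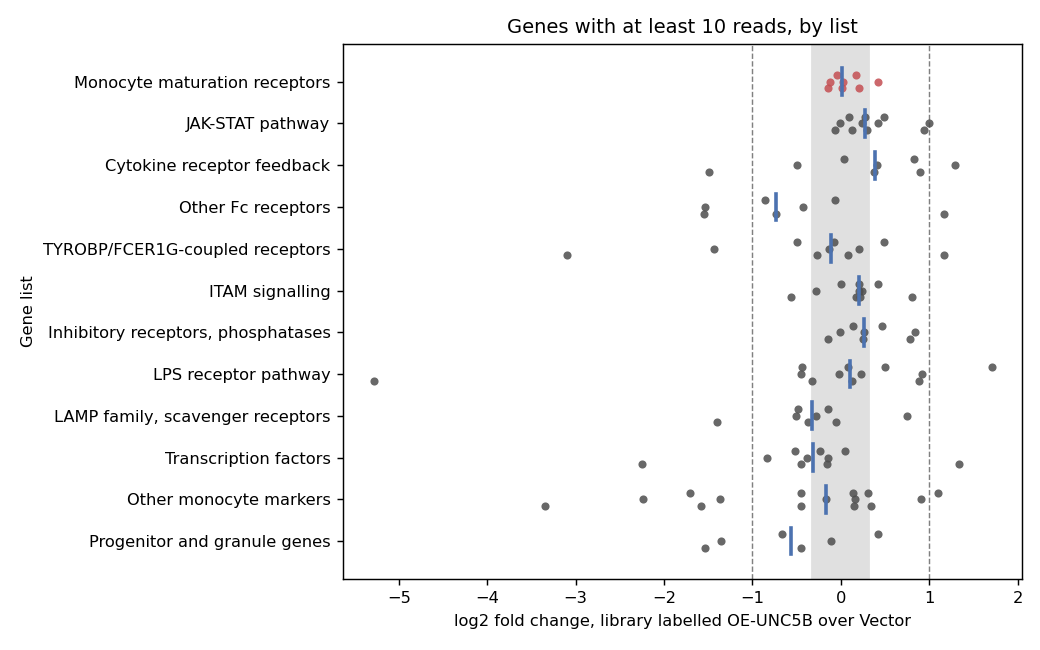
Log2 fold change of the OE-UNC5B-labelled library over Vector for each tested gene, by list (points), with the list median (blue bar), the 2-fold thresholds (dashed) and the range between the quartiles of all tested genes (grey, −0.33 to 0.32). The 8 tested maturation genes (red) lie within the thresholds, and the lowest point of the LPS pathway is TICAM2, which had 0 reads in the OE-UNC5B-labelled library, so that its place depends on the 0.5 reads added.

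The monocytic character of the line was checked against 19 markers that are not among the 10 genes. Of the 15 tested, 1 was higher and 5 were lower in the OE-UNC5B-labelled library, with a median of −0.17. ITGAX, the integrin CD11c, was higher with 89 and 225 reads (log2 fold change 1.10). LYZ, lysozyme, had the most reads and was lower with 51742 and 23700 reads (−1.36), as were MNDA with 541 and 213 reads (−1.58), CLEC12A with 134 and 33 reads (−2.24) and CLEC7A with 12 and 4 reads (−1.71). S100A9 had 21 and 2 reads, a ratio of scaled reads of 0.0808 with a counting interval from 0.00919 to 0.331. FCN1 and S100A12, markers of classical monocytes like CD14, had 0 reads in both libraries. Other markers of classical monocytes were present, among them CCR2, the receptor that draws monocytes out of the marrow, with 1046 and 900 reads (−0.45), VCAN, a proteoglycan, with 102 and 133 reads (0.14), and CD93 with 2005 and 2098 reads (−0.17). S100A8, the partner of S100A9, had 9 and 0 reads and FPR1, a formyl peptide receptor, 3 and 1, so that the markers of classical monocytes were not uniform.

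Of 6 tested progenitor and granule genes, 0 were higher and 2 were lower, with a median of −0.56. PRTN3, the granule protease proteinase 3, had the most reads of these in Vector and was lower with 33387 in Vector and 13614 in the other library (log2 fold change −1.53). MPO, myeloperoxidase, was lower with 3363 and 1553 reads (−1.35). CD34 had 0 reads in both libraries and KIT had 2 and 1.

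Markers of other cell types differed in level. The 7 neutrophil markers summed to 133 reads in Vector against 147 in the OE-UNC5B-labelled library, of which CXCR2, a chemokine receptor, held 130 and 142, with LTF, LCN2, MMP8 and CEACAM8 at 0. The 7 macrophage markers summed to 41 and 19 reads, with C1QA, C1QB and C1QC among the 5 at 0. The 5 B cell markers summed to 4 and 14 reads, of which CD79A had 3 and 10. The 8 T and NK cell markers summed to 610 and 733 reads, mainly in NKG7, NCAM1 and CD3D, with CD2 and KLRD1 at 0. NKG7, a granule protein of cytotoxic cells, had 340 and 315 reads and an exon-based level of 27.4 in Vector and 21.5 in the other library, near that of FCGR1A (20.9 and 21.1). The 8 erythroid and megakaryocyte markers summed to 16 and 10 reads, and the 8 stromal, endothelial and HEK293T markers to 29 and 13. The part of these markers in the values above was not tested.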

How the data were processed

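Bulk mRNA libraries of MOLM-13 cells, 1 Vector and 1 labelled OE-UNC5B, were sequenced. The deposited table holds whole read counts for each gene beside FPKM, which scale the counts to gene length and counted reads. Per the submitters' processing notes, bcl2fastq 2.19, HISAT2 2.0.4, StringTie 1.3.0 and GRCh38 were used. The annotation release, the use of strand and the length behind FPKM are not given in the sources used here.

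Library sizes were adjusted by TMM in edgeR 4.0.16 under R 4.3.3, and 0.5 reads were added for log2 fold changes. Testing began at a sum of 10 reads per gene, and a gene was called at 2-fold. Intervals are 95% Clopper-Pearson for ratios and exact Poisson for levels (scipy 1.17.1). Reads are not unique molecules. A quasi-likelihood test could not be fitted with 1 library per group. Gene positions and exon lengths came from GENCODE 44.

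The 10 genes and the lists of related genes were chosen with earlier results of these data known. Named are UNC5B, the 10 genes, genes of a list past 2-fold, the gene with most reads in each list that is discussed, and genes at 0 reads that are defining markers, ligands or partner chains. Of the genes this rule names, 1 is left out of the text. KIT, HCST, CD247, GAB2, GRB2, FCGR1B, SPI1, FGR, CARD9, CCR2, VCAN, CD93, S100A8, FPR1, CXCR2, NKG7, NCAM1 and CD3D were named after their values were seen, as were the genes overlapping or near a member. Family sums, the sum of CD68 with its overlapping transcript and the canonical transcript length were added after values were seen. The procedure was tested on simulated counts.

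The settings varied were the scaling (library totals or size factors of DESeq2 1.42.0), the unit (FPKM of at least 1 with 0.1 or 1 added), the reads added (2), the filter (none or 50 reads) and the call, by an exact binomial test on reads and the exact test of edgeR under an assumed coefficient of variation of 0.2 or 0.4 or at folds of 1.5 and 4. The study's other experiments were not analysed here.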

Additional observations from a re-analysis of the deposited data

How the results depend on the processing

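No member gene was called higher under any of the 12 alternatives (0 in each), and 0 were called lower under 11 of them. Several of these could not add a member call to the main result, so their 0 was fixed in advance. They are the 4-fold threshold, the filter of 50 reads, the 2 reads added, the read test and the edgeR tests. Only the scaling, the unit, no filter and the 1.5-fold threshold could have added one. With no filter on reads, 1 of the 10 was lower, FCER1G, with 5 and 1 reads, beside 3079 of the 22138 genes with reads. Counts over all tested genes, 792 higher and 737 lower of 15384, depended on the setting and on the number of genes tested. With FPKM, of 11564 genes, they moved to 392 and 281 with 0.1 added and 165 and 130 with 1 added. They moved to 2886 and 3079 of 22138 with no filter and to 359 and 297 of 12290 with at least 50 reads. Over the 15384 genes they moved to 131 and 121 with an assumed coefficient of variation of 0.2 and 7 and 8 with 0.4. At 1.5-fold they were 1991 and 1923, and at 4-fold 158 and 176. The read test left 522 higher and 521 lower. Scaling by library totals moved the median log2 fold change of all tested genes to 0.04. Log2 fold changes over the alternatives ranged from 0.17 to 0.22 for CSF1R, 0.38 to 0.47 for CSF2RA, −0.12 to −0.05 for CSF2RB, −0.04 to 0.00 for CSF3R, 0.01 to 0.12 for FCGR1A, 0.13 to 0.25 for FCGR2A, 0.02 to 0.07 for TYROBP and −0.46 to −0.08 for CD68, the lowest with AC016876.3 added. The cause of that difference was not tested. No paired analysis was possible because each group has 1 library, and for the same reason no library could be left out. Depth limits CD14 and FCER1G, for which a 2-fold difference was not detectable.

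Levels between genes moved with the length used, by construction. Per kilobase of merged exons, the levels in Vector and in the OE-UNC5B-labelled library were 4.81 and 5.41 for CSF1R, 6.68 and 8.96 for CSF2RA, 3.06 and 2.81 for CSF2RB, 15.7 and 15.2 for CSF3R, 20.9 and 21.1 for FCGR1A, 3.70 and 4.27 for FCGR2A, 31.6 and 32.2 for TYROBP, and 11.0 and 9.98 for CD68. Per kilobase of the canonical transcript they were 6.48 and 7.30 for CSF1R, 15.1 and 20.2 for CSF2RA, 3.15 and 2.89 for CSF2RB, 55.2 and 53.6 for CSF3R, 33.9 and 34.1 for FCGR1A, 7.59 and 8.75 for FCGR2A, 49.9 and 50.8 for TYROBP, 14.0 and 12.7 for CD68, and 0.219 and 0.232 for CD14.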

Other observations

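CSF2RA and IL3RA, the alpha chains of the GM-CSF and IL-3 receptors, are neighbours in the pseudoautosomal region of chromosome X. The 7 other tested genes within 300 kb of CSF2RA include IL3RA. Their log2 fold changes had intervals above 0 for 2 genes, IL3RA with 0.40 (0.25 to 0.56) and SLC25A6, a mitochondrial carrier for ADP and ATP, with 0.11 (0.08 to 0.14), where 25.2% of all tested genes had such an interval. The interval was below 0 for 1 gene, P2RY8, a receptor of the purinergic family, with −0.16 (−0.23 to −0.10). LINC00106 (0.21), ASMTL-AS1 (0.09), ASMTL (−0.12) and AKAP17A (−0.09) had intervals that included 0. These genes were chosen after the value of CSF2RA was seen.

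Over all lists of related genes, 114 genes were tested, of which 7 (6.14%) were higher and 17 (14.9%) were lower by 2-fold in the OE-UNC5B-labelled library, beside 5.15% and 4.79% of all tested genes. The lists were chosen with earlier results known, so nothing is read from these shares. The call of HBB, a hemoglobin chain with 14 and 8 reads, rested on the scaling, with a log2 fold change of −1.01 by TMM, −0.96 by library totals and −0.97 by DESeq2 size factors. The counting interval of HBB, from −2.50 to 0.31, also included 0. COL1A1, a collagen chain, was lower with 21 and 9 reads (−2.77 to −0.27). CD79A was past the threshold with 3 and 10 reads, but its interval included 0. GRB2, an adaptor that links receptors to RAS, had 1169 and 2642 reads and a log2 fold change of 0.94, close to the threshold.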
